A study of Caenorhabditis elegans with 8 samples.

Results

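The 775 piRNAs described here, each 21 nt long, are those of 9742 listed that start on chromosome IV of the C. elegans genome from 13 Mb up to 14 Mb, the left part of the large piRNA cluster of that chromosome. They were chosen by position alone. Small RNAs of whole worms were sequenced in 8 libraries of 4 genotypes, 2 libraries each: kin-3 worms cultured with 500 µM IAA (indole-3-acetic acid, an auxin), and prde-1, prg-1 and WT worms. No IAA is named for the prde-1, prg-1 and WT libraries. As labelled, the kin-3 comparisons therefore carry genotype and IAA together. The sources used here do not give alleles, strain construction or age. They also do not say that the libraries of a genotype stem from different cultures. The p-values therefore reflect only how these libraries differ among themselves, which may be technical. The labels name whole worms as the tissue, and the table lists no transcript by which that or the genotypes could be checked.

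piRNAs of worms, also called 21U-RNAs, are germline small RNAs that begin with U and guide the Piwi protein PRG-1 to foreign and other targets. Each is transcribed as its own short precursor from a small gene, and most of these genes lie in a large and a smaller cluster on chromosome IV. A short upstream motif and the upstream sequence transcription complex, which includes PRDE-1 and TOFU-4, are needed for their transcription. KIN-3 is the catalytic part of the protein kinase CK2, and the series is about this kinase acting on TOFU-4 in piRNA production. No nucleotide sequence was at hand, so neither the piRNAs nor the motif are shown.

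Values are in RPM, reads scaled by the authors to a library total of 1000000. All positive values were whole multiples of the value of 1 read. That read was worth 2.93 and 1.78 RPM in the kin-3 libraries, and 0.187 and 0.178 RPM in the prde-1 libraries. It was worth 1.03 and 1.43 RPM in the prg-1 libraries, against 0.745 and 1.09 RPM in the WT libraries. The totals behind the scaling ranged from 341001 reads in kin-3 replicate 1 to 5608712 reads in prde-1 replicate 2. RPM is relative to a pool of reads that the sources used here do not define. Low levels are bounded most tightly in prde-1 and least in kin-3. Intervals below are 95% intervals of counting error only and leave out variation between libraries. Reads carried no stated molecular identifier, so even the counting error may be understated.

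In WT worms the piRNAs of this window formed a dense field of mostly rare species that begins abruptly inside it. Only 14 of the 775 start below 13.6 Mb, and these held 10 of the 2823 WT reads of the window. The other 761 lie between 13.6 and 14 Mb, with a median of 294 bases between neighbouring starts. By 100 kb, the listed piRNAs numbered 148, 207, 196 and 210 from 13.6 Mb rightwards, and 58, 103, 95 and 118 of them had a WT read. Their summed WT level was 131 ± 0.551, 310 ± 9.35, 288 ± 12.7 and 514 ± 5.73 RPM (SD, n = 2 each). The last 100 kb thus held 41.2% of the window's WT level, and both WT libraries ranked it first. The leftmost listed piRNA of the window, 21ur-12375 (start 13074828), stood at 0 and 1.09 RPM in WT, and the next to the left, 21ur-10098 (start 12769447), had no read in any library. At the right edge, 21ur-6941 (start 13999476) stood at 5.21 and 2.19 RPM in WT and the first piRNA beyond it, 21ur-1182 (start 14000233), had no read in any library.

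**Figure D1:**
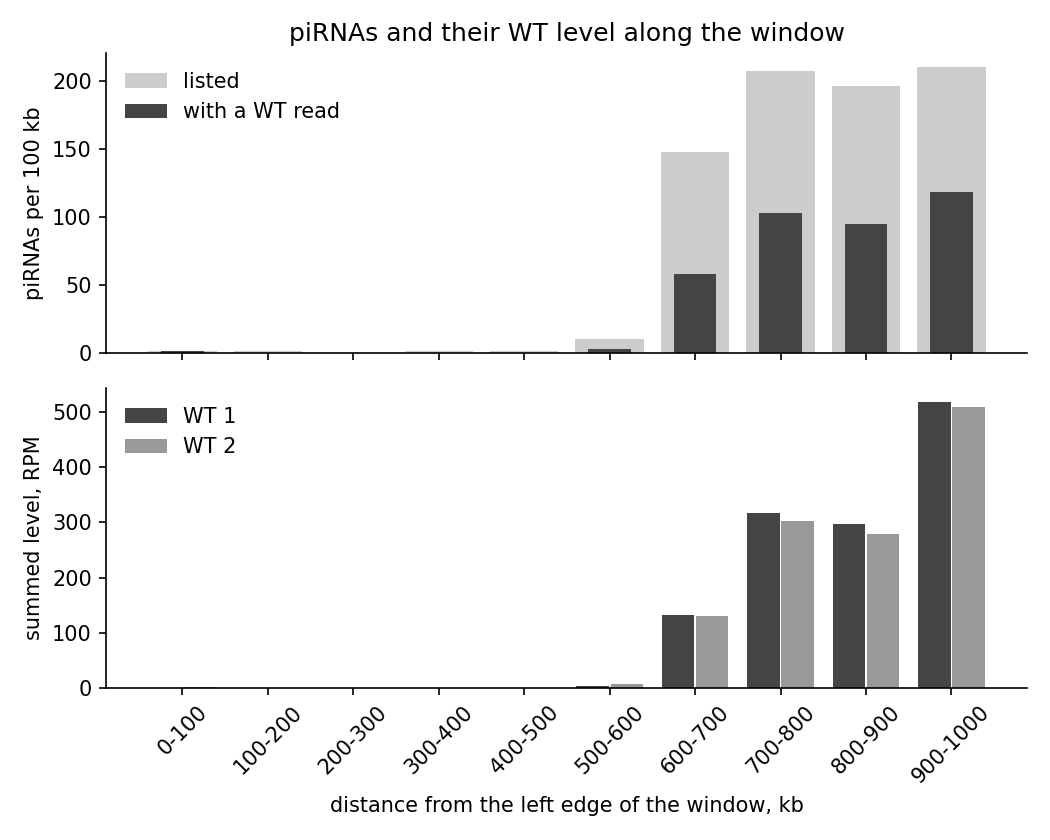
Listed piRNAs per 100 kb (upper panel, light bars) and those with a read in at least 1 WT library (dark bars), and the summed level in RPM in each WT library (lower panel), against distance from the left edge of the window in kb. The field starts at 600 kb, with 148 listed piRNAs in the first filled 100 kb and 210 in the last, where both WT libraries have their highest sum.

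The WT level was concentrated in few of the piRNAs. Of the 775, 397 had no WT read, 146 had 1, 173 had 2 to 9 and 59 had at least 10. The 59 held 70.8% of the window's WT reads, and the 10 highest held 30.8% of the level. In the window 51.2% had no WT read and 7.61% had at least 10, against 48.9% and 7.51% of the 7243 piRNAs farther right in the large cluster, from 14 Mb on. The median over piRNAs with a WT read was 1.09 RPM in both regions. Levels this low rest on very few reads and move in steps of 1 read, so equal medians say little. The highest level was 93.5 RPM in the window and 202 RPM farther right. These 2 regions were set side by side without a test.

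The WT libraries gave closely similar profiles. A read was found for 301 and 261 of the piRNAs, 184 of them in both libraries. The summed level was 1.03 times as high in replicate 1 as in replicate 2. Across the 59 piRNAs with at least 10 WT reads, 48 lay within 2-fold between the libraries, and their counts differed by about as much as sampling noise gives (chi-square 62.7 on 58 degrees of freedom, ratio 1.08).

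**Figure D2:**
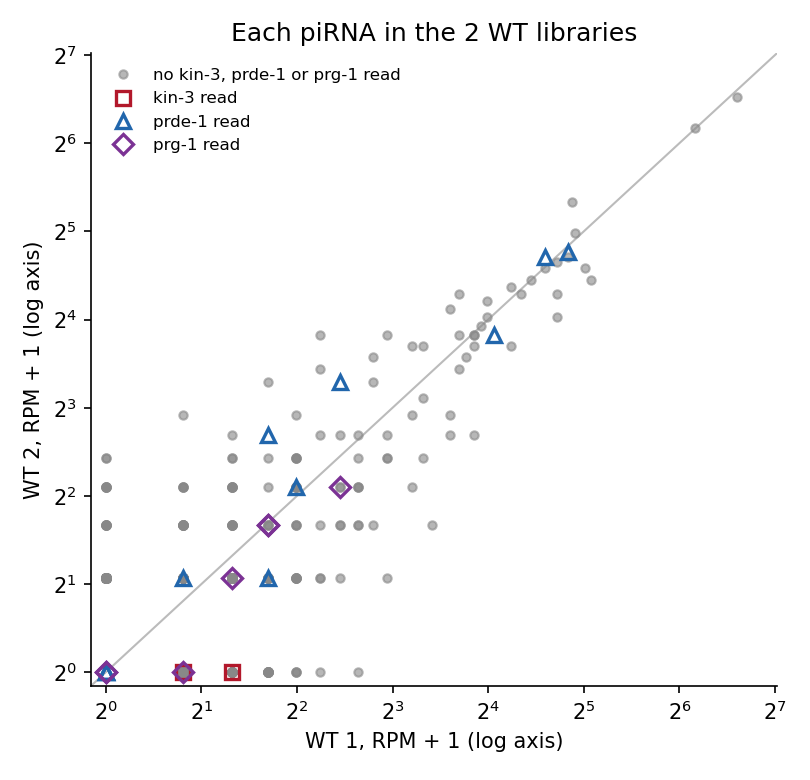
Level of each piRNA with any read in the 2 WT libraries, in RPM + 1 on log axes (gray points; the gray line marks equality), with the 20 piRNAs that had a read in kin-3 (squares), prde-1 (triangles) or prg-1 (diamonds) drawn as open symbols. The top 2 points are 21ur-2934 and 21ur-2741, and the highest open symbol is 21ur-1832, with a prde-1 read.

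The most abundant piRNA of the window was 21ur-2934 (WBGene00046853, chromosome IV 13948777 to 13948797, minus strand), which lies within an intron of Y37A1A.4, antisense to it. It was at 0 in the 6 libraries of the other genotypes, against 96.1 and 90.9 RPM in WT. Both WT libraries were far above the rest. Against the level of 3 pooled reads, it was at least 28.3-fold lower in kin-3 (limit 3.32 RPM), at least 343-fold in prde-1 (0.274 RPM) and at least 52.3-fold in prg-1 (1.80 RPM). The second, 21ur-2741 (WBGene00047545, 13990995 to 13991015, plus strand), lies sense within an intron of egl-23, a potassium channel gene. It too was at 0 in those 6 libraries, against 70.7 and 71.2 RPM in WT. Its bounds were 21.3-fold, 259-fold and 39.5-fold in the same order. The difference between these bounds follows the depth of the libraries, not a measured difference in loss.

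The next 8 by WT level stood between 24.1 and 33.9 RPM. 21ur-2877 (13897124 to 13897144, minus strand, outside coding genes) had 28.3 and 39.4 RPM in WT, the widest SD of the 10 but for that of 21ur-1148. 21ur-1148 (13830206 to 13830226, minus strand, antisense in an intron of rga-5) had 32.8 and 20.8 RPM in WT. Neither had a read outside WT, so the groups did not overlap in spite of the WT spread. Of the others, 21ur-568, 21ur-500, 21ur-1786 and 21ur-4951 also had WT reads only, and their lower bounds for the kin-3 fall lay between 7.47-fold and 8.94-fold. 21ur-1832 (13917860 to 13917880) had 1 read in prde-1 replicate 1, or 0.187 RPM, against 27.6 and 26.3 RPM in WT (pooled WT over prde-1 ratio 296, interval 51.2 to 11879). 21ur-5554 (13746888 to 13746908) had 1 read in prde-1 replicate 2, or 0.178 RPM, against 23.1 and 25.2 RPM in WT (ratio 262, interval 45.1 to 10538). Both of these had no kin-3 or prg-1 read.

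Summed over the window, nearly all of the WT signal was gone in each of the other genotypes. The 775 piRNAs summed to 5.87 and 0 RPM in kin-3, 1.12 and 0.891 RPM in prde-1 worms and 5.16 and 5.72 RPM in prg-1, against 1265 and 1231 RPM in WT. These sums rest on 2 and 0 reads of kin-3, 6 and 5 of prde-1, 5 and 4 of prg-1, against 1699 and 1124 in WT. Both WT libraries were far above the other 6. Pooled over its 2 libraries, kin-3 kept 0.177% of the WT level (interval 0.0214 to 0.640%), prde-1 0.0803% (0.0400 to 0.144%) and prg-1 0.431% (0.197 to 0.819%). The kin-3 value was 0% without its replicate 1 and 0.469% without its replicate 2. WT differed from the other 6 libraries (exact permutation test, two-sided p = 0.0357, the smallest that 28 splits can give), while the test over the 4 genotypes gave an exact permutation p of 0.0857, or 0.00952 without kin-3 replicate 1 and 0.0190 without kin-3 replicate 2. A pair of genotypes cannot go below an exact p of 0.333 and is described by its values. In bulk RNA of whole worms, fewer germ cells and less piRNA per cell cannot be told apart.

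**Figure D3:**
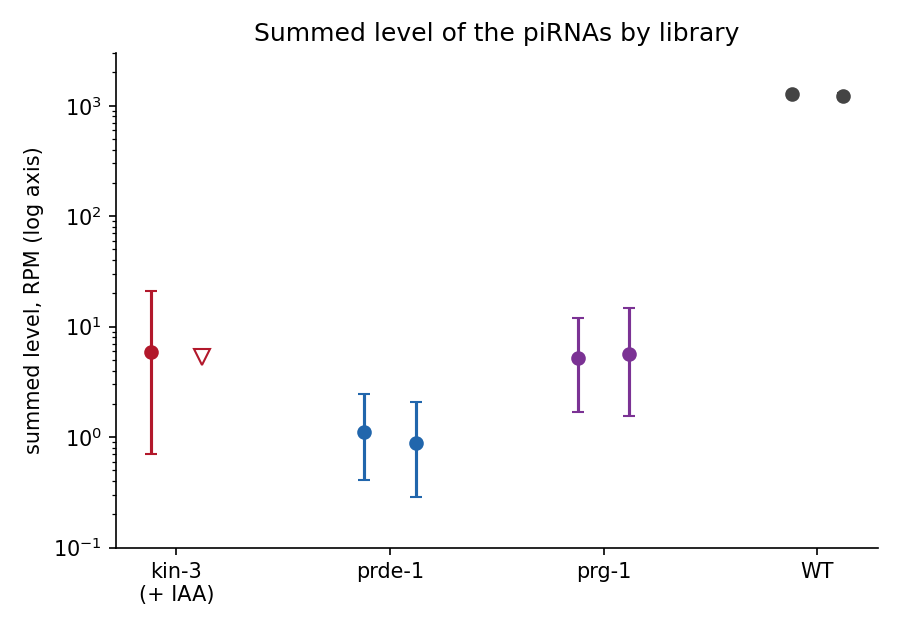
Summed level of the 775 piRNAs in each library, in RPM on a log axis, by genotype, with exact 95% Poisson intervals. The open triangle marks kin-3 replicate 2, which had no read, at its limit of 3 reads (5.34 RPM), and the WT libraries lie at 1265 and 1231 RPM.

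The number of piRNAs seen fell in the same way. Reads were found for 2 and 0 of the 775 in the kin-3 libraries, 6 and 5 in those of prde-1 and 4 and 4 in those of prg-1, against 301 and 261 in WT (exact permutation p = 0.0357 for WT against the other 6, and 0.00952 over the 4 genotypes). Thinned to 341001 reads, the expected numbers were 1 ± 1.41 (kin-3), 0.344 ± 0.0561 (prde-1) and 1.79 ± 0.222 (prg-1), against 155 ± 0.408 in WT (SD, n = 2), and the exact permutation p over the 4 genotypes was 0.0857. For the 0 of 775 in kin-3 replicate 2, the limit of 3 reads is a summed level of 5.34 RPM, and the upper bound of the exact Poisson interval is 6.56 RPM.

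For single piRNAs, 59 of the 775 reached the mean of 1 RPM over the 8 libraries that the test required. All but 21ur-10408 did so through their WT level alone, so a fall had to follow and these counts are a description. 21ur-10408 passed only with its 1 prg-1 read (1.03 RPM) added to its WT level. All but 1 of the 59 are among those with at least 10 WT reads. Limma on log2(RPM + 1), fitted over all 695 piRNAs that passed, called all 59 lower in kin-3, beside 97.8% of the 695, all 59 lower in prde-1, beside 98.3%, and all 59 lower in prg-1, beside 98%. It called 0 of the 59 higher in kin-3, beside 0.288% of the 695, 0 in prde-1, beside 0.863%, and 0 in prg-1, beside 0.432%. All 59 had an unadjusted p under 0.05 in each comparison. With edgeR on the recovered reads, 59 were lower and 0 higher in each, beside 97.1% lower and 0.288% higher of the 695 in kin-3, 98.3% and 0.863% in prde-1, and 98.3% and 0.288% in prg-1. For all 59, both kin-3 libraries lay below both WT libraries, beside 98.3% of the 695, as did both prde-1 libraries, beside 98.6%, and both prg-1 libraries, beside 98.4%. The median log2(RPM + 1) fold change of the 59, whose size the pseudocount sets, was -3.51 in each comparison, against -3.06 (kin-3), -3.06 (prde-1) and -3.04 (prg-1) over the 695. With piRNAs under 3 pooled reads set to that limit, the medians of the 59 were -1.62 (kin-3), -5.22 (prde-1) and -2.50 (prg-1), against -1.18, -4.78 and -2.07 over the 695. Without the filter, 383 of the 775 had a value to test, and limma called 183 of them lower in kin-3 (47.8%, beside 45.4% of all 4878), 183 in prde-1 (47.8%, beside 45.4%) and 180 in prg-1 (47.0%, beside 45.3%). It called 0, 0 and 1 higher, beside 0.041%, 0.185% and 0.041%. The window's share of calls was thus near that of all listed piRNAs.

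Of the 59, 59 were without a kin-3 read, 55 without a prde-1 read and 58 without a prg-1 read. Of all 695 tested, 663, 617 and 662 were without a read in the same order, so most tested piRNAs shared this. 21ur-2934 had a log2(RPM + 1) fold change of -6.56 (SE 0.041) in all 3 comparisons with WT (limma adjusted p = 1.5e-08 each), the largest fall of the 59. The equal values follow from the common WT libraries and from 0 reads in the other 6, where the pseudocount sets the size. They are smaller than the 343-fold bound in prde-1 and are no measure of the loss. The SE and adjusted p rest on a spread shared by the genotypes, to which the 6 libraries at 0 add none. They are therefore no measure of the sampling error of the WT level. The smallest fall was at 21ur-10408 (13750653 to 13750673, minus strand, antisense in an intron of sorb-1) in prg-1. Without its prg-1 read it would not have passed the filter. It stood at 1.03 and 0 RPM in prg-1, 1 read in all, against 4.47 and 3.28 RPM in WT (log2 fold change -1.76, SE 0.34, limma adjusted p = 0.0037, or 0.249 after TMM rescaling). Its prg-1 libraries lay below both WT libraries, while the pooled WT over prg-1 ratio of 6.66 had an interval of 0.923 to 292. 21ur-5630 (13747812 to 13747832, minus strand, outside coding genes) stood at 0 and 0.178 RPM in prde-1, against 4.47 and 8.76 RPM in WT (log2 fold change -2.75, SE 0.28, limma adjusted p = 2.1e-04, or 0.142 after TMM rescaling). The other prde-1 reads among the 59 fell on 21ur-1832, 21ur-5554 and 21ur-7107, which lies sense in an intron of egl-23 and was at 0.187 and 0 RPM in prde-1, against 15.6 and 13.1 RPM in WT; it is named after its values were seen.

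In all, 20 of the 775 piRNAs had a read in a genotype other than WT, none in more than 1 of them and none with more than 2 reads. 15 of the 20 also had a WT read. They lay across all 4 of the filled 100 kb, with 4, 6, 6 and 4 from left to right.

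In kin-3 both reads fell in replicate 1 and on rare piRNAs. 21ur-5112 (13615765 to 13615785, outside coding genes but overlapping an annotated pseudogene) had 2.93 and 0 RPM in kin-3. It had 0.745 and 0 RPM in WT, which is 1 read in each genotype. 21ur-2749 (13727170 to 13727190, antisense in an intron of ent-4, a nucleoside transporter gene) had 2.93 and 0 RPM in kin-3, against 1.49 and 0 RPM in WT. Neither difference is detectable at this depth: the pooled WT over kin-3 ratios were 0.400 (interval 0.00510 to 31.4) and 0.801 (0.0417 to 47.2).

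In prde-1 the 11 reads fell on 11 piRNAs, 1 read each. 8 of the 11 also had a WT read, and the 11 had a median WT level of 3.13 RPM. Besides 21ur-1832, 21ur-5554 and 21ur-5630, those named by the rule, with ties at 1 read taken from left to right, were 21ur-1676, 21ur-3629 and 21ur-3338. 21ur-1676 (antisense in an intron of sorb-1) stood at 0 and 0.178 RPM in prde-1, against 2.98 and 3.28 RPM in WT (ratio 34.0, interval 4.36 to 1531). 21ur-3629 stood at 0 and 0.178 RPM in prde-1, against 0.745 and 1.09 RPM in WT (ratio 9.70, interval 0.505 to 572), which includes equality. 21ur-3338 (start 13600849), the leftmost, had 1 prde-1 read and none in WT, as had 21ur-9695 and 21ur-15594. The position of 21ur-3338 overlaps the annotated snRNA gene smy-8, with strands not compared.

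In prg-1 the 9 reads fell on 7 piRNAs. 21ur-3229 (WBGene00049506, 13810297 to 13810317, minus strand, outside coding genes) was the only one with a read in both prg-1 libraries, at 1.03 and 1.43 RPM, against 0 and 0 RPM in WT. It failed the filter. Without the filter limma called it higher in prg-1 (log2 fold change 1.15, SE 0.13, adjusted p = 6.9e-04), the only such call in the window in any comparison with WT, on 1 read per library. That fitted value depends on the pseudocount, since WT is at 0 and prg-1 has 2 pooled reads, under the limit of 3. 21ur-2729 stood at 2.06 and 0 RPM in prg-1, against 0.745 and 0 RPM in WT (pooled WT over prg-1 ratio 0.370, interval 0.00627 to 7.11). 21ur-1241, sense in an exon of C08F11.13, stood at 0 and 1.43 RPM in prg-1, against 2.23 and 2.19 RPM in WT. 21ur-1439 stood at 1.03 and 0 RPM in prg-1, against 1.49 and 1.09 RPM in WT. The pooled WT over prg-1 ratios of 21ur-1241 and 21ur-1439 were 3.70 (interval 0.414 to 175) and 2.22 (0.178 to 117). Both intervals include equality. 21ur-7426, in an intron of rga-5, was at 0 and 1.43 RPM in prg-1 and had no WT read. Apart from 21ur-3229, each of these had reads in only 1 of the 2 prg-1 libraries.

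The prde-1 libraries kept less of the window than prg-1, with a pooled ratio of prde-1 over prg-1 of 0.186 (interval 0.0702 to 0.509), and both prde-1 libraries lay below both prg-1 libraries. The ratio of kin-3 over prde-1 was 2.20 (interval 0.237 to 10.1) and that of kin-3 over prg-1 was 0.411 (0.0432 to 1.98), so neither could be told from 1 at this depth. kin-3 replicate 1 at 5.87 RPM lay above all prde-1 and prg-1 libraries, and replicate 2 at 0 RPM below them. Of the 59 tested piRNAs, 55 to 59 are at 0 in each of these genotypes, beside 617 to 663 of the 695. The tests of single piRNAs therefore compare mostly 0 with 0 and could hardly give a call. Limma called 0 of the 59 in each of these 3 comparisons, beside 0% of the 695, with 0 at an unadjusted p under 0.05. edgeR also called 0 of the 59, beside 0.288% lower and 0.144% higher of the 695 in kin-3 against prde-1, 0% in kin-3 against prg-1, and 0.144% lower and 0.576% higher in prde-1 against prg-1. These ratios are shares of RNA pools whose make-up is unknown and may differ between genotypes, which was not tested.

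The window's share of what remained of the large cluster did not pass a test between genotypes. Of the reads on chromosome IV from 13 Mb, the window held 9.09% and 0% in kin-3, 5.22% and 4.35% in prde-1 worms, 9.09% and 12.9% in prg-1 worms, against 10.3% and 10.3% in WT. These are shares of 22 and 19 kin-3 reads, 115 and 115 prde-1 reads, 55 and 31 prg-1 reads, against 16456 and 10935 WT reads. Pooled, kin-3 had a share of 4.88% (exact binomial interval 0.596 to 16.5%), prde-1 of 4.78% (2.41 to 8.40%) and prg-1 of 10.5% (4.90 to 18.9%), against 10.3% in WT (9.95 to 10.7%). Only the pooled prde-1 interval of these lay wholly below that of WT, and both prde-1 libraries lay below both WT libraries. The exact permutation tests over libraries missed the threshold of 0.05 (p = 0.357 for WT against the other 6, and 0.314 over the 4 genotypes). Without kin-3 replicate 1, the test over the 4 genotypes gave an exact permutation p of 0.0286. In the same terms, the window was 1245-fold lower in prde-1 than in WT (interval 695 to 2497), while the cluster from 14 Mb on was 544-fold lower (476 to 625). In kin-3 the window was 565-fold lower (156 to 4668) and the rest 252-fold lower (184 to 355). In prg-1 the window was 232-fold lower (122 to 508) and the rest 236-fold lower (189 to 299).

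**Figure D4:**
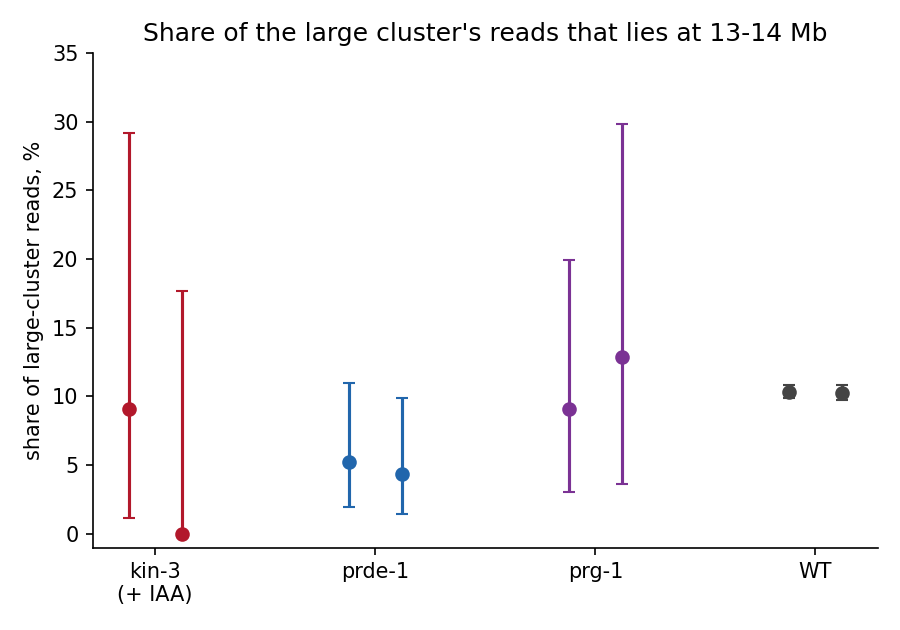
Share of the reads on chromosome IV from 13 Mb that fell on the 775 piRNAs, in percent, for each library by genotype, with exact 95% binomial intervals. Both prde-1 libraries (5.22% and 4.35%) lie below both WT libraries (10.3% each), while the intervals of all libraries but prde-1 replicate 2 (1.43 to 9.85%) span the WT share.

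Megabase by megabase, prde-1 kept 0.0803% of the WT level in the window, 0.153% at 14 to 15 Mb, 0.156% at 15 to 16 Mb, 0.247% at 16 to 17 Mb and 0.305% from 17 Mb. In the same order, kin-3 kept 0.177%, 0.229%, 0.425%, 0.532% and 0.985%, and prg-1 kept 0.431%, 0.427%, 0.512%, 0.332% and 0.267%. The window thus had the lowest remaining level of the 5 regions in kin-3 and in prde-1, whereas in prg-1 only 15 to 16 Mb had a higher one. The kin-3 values rest on 2, 9, 13, 13 and 4 reads, and no test of the order was made. The fold intervals of the window and of 14 to 15 Mb (230 to 954 in kin-3, 518 to 832 in prde-1, 165 to 345 in prg-1) overlapped in each genotype. In kin-3 and prg-1 the window's interval overlapped those of the other regions too. In prde-1 its interval (695 to 2497) overlapped that of 15 to 16 Mb (494 to 843). It lay above those of 16 to 17 Mb (322 to 518) and from 17 Mb (198 to 588), by counting error only.

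By the annotation of WBcel235, 385 of the 775 lie in introns of coding genes, 42 overlap an exon of one and 348 lie outside coding genes. Of the 42, 24 overlap coding sequence and 18 only untranslated exon. The intronic piRNAs held 54.5% of the WT level (719 and 643 RPM), those outside coding genes 42.7% (507 and 559 RPM) and those in exons 2.72% (39.5 and 28.5 RPM). Per listed piRNA this is 1.77, 1.53 and 0.809 RPM, and 51.7%, 46.3% and 42.9% had a WT read. Of the reads of the other genotypes, 1 kin-3, 3 prde-1 and 3 prg-1 reads were intronic, 1 prde-1 and 1 prg-1 read were exonic and the others lay outside coding genes.

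The genes Y37A1A.4, sorb-1, rga-5 and egl-23, all on the plus strand, held 230 of the 427 piRNAs inside coding genes and 39.5% of the window's WT level. Y37A1A.4 (29.6 kb) held 82 piRNAs, 49 sense and 33 antisense to it. Its antisense piRNAs summed to 157 and 155 RPM in WT and its sense piRNAs to 40.2 and 32.8 RPM, and the antisense sum includes 21ur-2934. sorb-1 (20.2 kb), which encodes a sorbin and SH3 domain adaptor protein, held 68 that summed to 77.5 and 59.1 RPM. rga-5 (17.1 kb) held 49 with 103 and 74.5 RPM. egl-23 (23.0 kb), which runs past the right edge, held 31 inside it with 149 and 138 RPM, of which the 17 sense piRNAs gave 121 and 113 RPM. Over the 4 genes together there were 0 kin-3 reads, 2 prde-1 reads and 2 prg-1 reads, against 1127 WT reads.

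The strands contributed about equally. The 390 plus-strand piRNAs summed to 645 and 595 RPM in WT and the 385 minus-strand piRNAs to 620 and 636 RPM, so the order of the strands differed between the 2 WT libraries. Of intronic piRNAs, 217 were antisense and 168 sense to the host gene, with 387 and 341 RPM and 332 and 302 RPM in WT. In both orientations the other genotypes kept at most 2 reads each.

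Many listed piRNAs overlap a neighbour. 196 of the 775 overlapped another listed piRNA on the same strand, in 92 pairs and 4 groups of 3. In 44 of the pairs the starts were 1 base apart, in 40 they were 3 apart, in 7 they were 4 apart and in 0 they were 2 apart. Neighbours on 1 strand were 1, 2, 3 and 4 bases apart in 6.08%, 0%, 5.56% and 1.16% of 773 cases in the window, against 7.07%, 0.677%, 5.75% and 1.34% of 7241 from 14 Mb on. 18 of the overlapping groups had at least 10 WT reads, and in 14 of these more than 90% of the reads fell on the leading piRNA. The leading piRNA is the one with the most WT reads, which favours a high share. piRNAs without overlap were not set beside these groups, so the share is not tied to overlap. The leading piRNA was the one with the 5′-most start in 8 of the 18. The exception among the most abundant was 21ur-2934, whose partner 21ur-7579 starts 3 bases away (13948774 to 13948794) and stood at 14.9 and 17.5 RPM in WT, so that 21ur-2934 held 85.5% of the 248 reads of the pair. By contrast, 21ur-1148 and 21ur-5554 held all of the 63 and 54 reads of theirs. Overlapping piRNAs share most of their sequence and are not independent of each other.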

How the data were processed

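The authors deposited 1 table of 9742 piRNAs with 1 column per library in RPM. The tools named are cutadapt 1.18 and Bowtie 1.2.1.1, per the submitters' processing notes. The sources used here give no settings, no build and no handling of multiply matching reads. Per the labels' protocols, small RNAs were treated with PIR-1, an RNA phosphatase, before ligation. 100% of positive values were whole multiples of the smallest value of their library (tolerance 0.01 reads). 1000000 divided by that value gave the scaling total and whole reads. No column of values was left unused. Positions and strands of 769 of the 775 piRNAs matched a piRNA gene of Ensembl release 115 (WBcel235), whose names are used; that annotation holds 1127 piRNA genes in the window, and the others are not analysed here.

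Limma 3.58.1 (R 4.3.3, trended prior) was fitted to log2(RPM + 1) of the 695 piRNAs with a mean of at least 1 RPM, over all 8 libraries by genotype, with Benjamini-Hochberg adjustment over the 695 at 0.05. On this scale the fold change is understated, for rare piRNAs and for any at 0 in a genotype. Genotypes at 0 in both libraries add no spread to the shared estimate, so SE and p can be too small. A check of the fit on simulated data gave every genotype the WT levels, with a partial fall of some piRNAs in prde-1 only. It does not cover the near-complete loss seen here. edgeR 4.0.16 (quasi-likelihood) on recovered reads was an alternative. In kin-3 and prg-1 each library had fewer than 100 positive values, so whole reads are less firmly shown there. Intervals came from scipy 1.17.1 (exact Poisson, Clopper-Pearson, conditional binomial).

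Named were the 10 piRNAs highest in WT, the 5 highest in each other genotype with a read, tested ones not called lower (none), and those at the window's edges; 21ur-7579, 21ur-7107, 21ur-9695, 21ur-15594, 21ur-7426 and the 13.6 Mb boundary were chosen after their values were seen. Members and lists were chosen with earlier results of these data known. Lists on the upstream motif and first base were not run, as no genome sequence was at hand.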

Additional observations from a re-analysis of the deposited data

How the results depend on the processing

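The 59 falls in each comparison with WT stayed at 59 with pseudocounts of 0.1 and 5, with edgeR, with only the 2 genotypes fitted and with the replicate block. Beside them, 668 to 683 of the 695 fell in these settings. With TMM rescaling they were 59 in kin-3, 58 in prde-1 (without 21ur-5630) and 58 in prg-1 (without 21ur-10408), beside 665, 646 and 665 of the 695. The window thus stayed near the rate of all tested piRNAs. Without any 1 library, the median log2 fold change of the 59 lay between -3.71 and -3.51. TMM assumes that most piRNAs do not change, and moved the median log2 fold change of the 695 to between -1.60 and -1.57. No filter gave 183 falls for kin-3, 183 for prde-1 and 180 for prg-1, which also had 1 rise. Beside these, 2214, 2216 and 2208 of all 4878 fell. A mean of at least 10 RPM left 2 piRNAs, both lower in each, beside 27 of 31 in each. The number tested sets these counts. The median log2 fold change of the 59 depends on the scale: in kin-3, for instance, it was -3.51 with a pseudocount of 1, -6.71 with 0.1, -1.62 with 5, -1.95 with TMM and -7.34 with edgeR. Between the other genotypes the 59 are nearly all at 0, so the lack of calls under every setting run says nothing about stability. For those pairs limma's trended prior failed when only the 2 genotypes were fitted, and no other prior was tried. The deviations of same-numbered libraries had correlations of -0.029 to 0.074 between genotypes. Of the 695 piRNAs, 663 had no read in kin-3, 617 none in prde-1 and 662 none in prg-1. The correlations could therefore hardly leave 0 and cannot decide whether the libraries are paired. The replicate block changed no call among the 59.

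Leaving out each library in turn, the exact permutation p ranged from 0.0476 to 0.143 for WT against the others in the summed level and in the number seen, since 7 splits allow no p under 0.143 without a WT library. Over the 4 genotypes the exact p ranged from 0.00952 to 0.0857 for the summed level, passing the threshold without either kin-3 library, and from 0.0286 to 0.448 for the share of the large cluster. Thinning gave an exact permutation p of 0.0857 for the number seen over the 4 genotypes. The thinned means were 0.344 (prde-1), 1.79 (prg-1) and 155 (WT). Without 21ur-2934, prg-1 kept 0.466% of the WT level, and the window's share in WT was 9.61%. The kin-3 values rest on 1 library: without kin-3 replicate 1 the summed level was 0% of WT and without replicate 2 it was 0.469%, and the share was 0% and 9.09%.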
